A study of Mus musculus with 18 samples.

Results

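Expression of 10 genes of the YAP/TAZ and TEAD pathway was described in mouse knee cartilage after rupture of the anterior cruciate ligament. The genes were the co-activators Yap1 and Wwtr1 (which encodes TAZ), the DNA-binding factors Tead1, Tead2, Tead3 and Tead4, the kinases Lats1 and Lats2, and the target genes Ankrd1 and Amotl2. They were taken from a list of gene names and form 10 of the 49184 genes measured.

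YAP and TAZ do not bind DNA themselves but enter the nucleus and act through TEAD factors. The Hippo kinases MST1/2 (Stk4 and Stk3) with SAV1 activate LATS1/2 with MOB1, and LATS phosphorylates YAP and TAZ so that they are held in the cytoplasm or degraded. Stretch, stiff matrix and loss of cell contact are known to bring YAP and TAZ into the nucleus, and in cartilage the pathway is studied as a sensor of load. This control acts largely on the proteins, whereas the measurements here are of RNA.

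Total RNA depleted of ribosomal RNA was sequenced from femoral condyle cartilage in 18 libraries of 12-week-old male C57Bl/6J mice with no genetic change. The 6 naïve libraries came from mice without loading and are labelled day 7, so that day 1 knees were also compared with naïve knees of that label. A single mechanical load ruptured the ligament of the right knee, and 3 libraries each were made of injured right knees at day 1 and at day 7, and of contralateral left knees of injured animals at the same times. Every library was a pool, the sources differ on whether day 1 libraries hold 2 or 4 mice, some naïve libraries hold knees of the same mice, which the labels leave unnamed, so n counts libraries and not mice. The contralateral knee belongs to an animal with an injury, so it is no untouched control. Injured mice received the analgesic buprenorphine, and the sources used here do not say whether naïve mice did.

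Total estimated counts per library were 16074762 to 29407822 in naïve knees, 21149762 to 29086832 in injured and 25016972 to 41794005 in contralateral knees at day 1, and 19296475 to 26931502 in injured and 19192253 to 29794566 in contralateral knees at day 7. Values are given as CPM, which sets the estimated counts of a gene against its library's total after TMM scaling. Calls of higher or lower needed a change of 1.5-fold or more and an FDR up to 0.05 in edgeR's quasi-likelihood test, adjusted over all genes tested.

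The libraries carried the defining markers of cartilage, and RNA of other cells. The 10 chondrocyte markers, of which Col2a1 made up 62.4%, summed to between 3492.4 and 13251.9 CPM. The 10 skeletal muscle markers summed to 4198.0 to 18985.2 CPM, the 7 erythroid markers to 16677.3 to 64543.3 CPM, and the 6 marrow myeloid markers to 5895.9 to 12225.1 CPM. The mean chondrocyte sum of naïve libraries, 5028.4 CPM, was under their erythroid (34496.0), skeletal muscle (11013.5) and marrow myeloid (9357.3) means. No marker was at 0 in every library. In these bulk libraries, more cells of a type and more RNA per cell cannot be told apart. Day 7 contralateral replicate 1 stood apart: its 10 most abundant genes held 42.5% of its counts, against 16.6% to 29.8% in the others, and it had the highest erythroid and chondrocyte sums. Comparisons that use it were also made without it.

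The TEAD family is known to bind the letters GGAATG, read as CATTCC on the other strand. These letters were searched on both strands in the 250 bases before the transcription starts of RefSeq (build GRCm38.p6), in which 8 of the 10 genes had an entry. A match was found for 5 of the 8, namely Yap1, Wwtr1, Tead3, Ankrd1 and Amotl2, and for none of the windows of Tead2, Lats1 and Lats2. Of all 27025 genes with a window, 14.4% had a match, and of all 32851 windows of this length 12.6% held a match and 1.02% held 2 or more. The windows shown are those of the 5 genes with a match and of Ccn1, so that the matched letters can be seen in place. Capitals mark the matched letters, and each window runs 5′ to 3′ on the strand of the gene and ends at the base before the start.
Wwtr1 (chr3:57575911-57576160, minus strand): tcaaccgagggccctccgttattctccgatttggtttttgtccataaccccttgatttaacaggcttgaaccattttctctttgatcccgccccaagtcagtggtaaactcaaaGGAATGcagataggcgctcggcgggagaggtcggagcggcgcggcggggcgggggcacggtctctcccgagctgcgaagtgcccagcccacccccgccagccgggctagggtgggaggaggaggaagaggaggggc
Yap1 (chr9:8004597-8004846, minus strand): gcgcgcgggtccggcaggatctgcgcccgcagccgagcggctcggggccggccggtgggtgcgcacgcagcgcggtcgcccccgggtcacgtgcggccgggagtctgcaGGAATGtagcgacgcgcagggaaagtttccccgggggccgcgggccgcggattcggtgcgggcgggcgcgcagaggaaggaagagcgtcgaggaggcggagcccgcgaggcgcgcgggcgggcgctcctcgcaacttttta
Tead3 (chr17:28350601-28350850, minus strand): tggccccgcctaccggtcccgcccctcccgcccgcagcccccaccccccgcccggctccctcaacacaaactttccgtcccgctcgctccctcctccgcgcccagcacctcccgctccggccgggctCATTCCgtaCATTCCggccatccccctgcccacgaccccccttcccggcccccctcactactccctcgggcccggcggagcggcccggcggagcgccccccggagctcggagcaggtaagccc
Ankrd1 (chr19:36119845-36120094, minus strand): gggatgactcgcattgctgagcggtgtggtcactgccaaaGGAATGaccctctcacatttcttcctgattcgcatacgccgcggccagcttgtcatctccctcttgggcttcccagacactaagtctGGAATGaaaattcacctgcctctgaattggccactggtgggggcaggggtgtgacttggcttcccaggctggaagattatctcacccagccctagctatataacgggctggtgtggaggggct
Amotl2 (chr9:102717554-102717803, plus strand): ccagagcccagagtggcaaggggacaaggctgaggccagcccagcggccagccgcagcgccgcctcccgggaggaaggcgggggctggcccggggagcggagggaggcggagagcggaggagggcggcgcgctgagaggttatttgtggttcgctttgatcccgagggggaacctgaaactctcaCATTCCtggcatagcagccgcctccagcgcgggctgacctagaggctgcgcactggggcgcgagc
Ccn1 (chr3:145649986-145650235, minus strand): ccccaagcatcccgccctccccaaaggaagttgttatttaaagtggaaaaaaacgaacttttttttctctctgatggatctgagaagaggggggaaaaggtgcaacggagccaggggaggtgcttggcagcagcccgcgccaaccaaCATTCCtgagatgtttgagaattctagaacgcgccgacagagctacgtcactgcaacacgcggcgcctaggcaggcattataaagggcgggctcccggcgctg

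In the shown window of Wwtr1 the match began 136 bases before the start, and in Yap1 141 bases before it. Wwtr1 has 2 windows, and in the other the same match began 170 bases before the start. The shown window of Tead3, which has 2 others, held CATTCC in 2 copies that begin 123 and 114 bases before the start. Another Tead3 window held GGAATG 182 bases before its start, and the remaining window held no match. Ankrd1 held GGAATG in 2 copies, 210 and 123 bases before the start. Amotl2 held CATTCC 65 bases before the start, and Ccn1, a target gene, also held it once. Of the 12 genes with a window in the target list described further on and outside the 10, 4 held a match, Ccn1 among them, and Igfbp3, Myof and Tgfb2 held none. The letters TGANTCA, with any base at N, were searched for the AP-1 factors, and 6.75% of all windows hold them. No window of the 8 genes with an entry or of Ccn1 held TGANTCA, while that of F3, another target gene, held it in 2 copies. A match is a run of letters and not evidence of binding in cartilage.

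Of the co-activators, Wwtr1 showed the larger change. Wwtr1 (ENSMUSG00000027803, chr3:57455649-57575910, minus strand, GRCm38) encodes TAZ. It was measured at 35.8 to 55.3 CPM in the 6 naïve libraries, with a median of 40.6. In day 1 injured knees it was at 54.0, 40.8 and 59.7 CPM and in day 1 contralateral knees at 32.6, 34.1 and 42.5 CPM. In day 7 contralateral knees it was at 28.2, 42.7 and 41.8 CPM, and in day 7 injured knees at 101.8, 110.6 and 129.8 CPM. All 3 day 7 injured libraries therefore lay above each of the other 15, while the other groups overlapped. The mean rose from 43.2 ± 7.06 CPM (SD, n = 6) in naïve to 114.1 ± 14.3 CPM (SD, n = 3) in day 7 injured knees, 1.42 on the log2 scale (standard error 0.14, FDR 2.3e-06).

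Yap1 (ENSMUSG00000053110, chr9:7931999-8004596, minus strand), encodes the other co-activator and was also highest in day 7 injured knees. Its naïve libraries lay between 29.9 and 43.4 CPM, with a median of 35.7. It was measured at 43.6, 34.7 and 45.3 CPM in injured and 32.8, 27 and 34.6 CPM in contralateral knees at day 1. At day 7 it was at 39.6, 33.6 and 36.9 CPM in contralateral and 65.4, 71.2 and 81.2 CPM in injured knees. The day 7 injured libraries were again the 3 highest of all 18. Against naïve knees, Yap1 rose 2.01-fold, 1.01 on the log2 scale (standard error 0.119, FDR 1.3e-05). In naïve knees the transcripts Yap1-201 and Yap1-202, both protein-coding, held 52.9% ± 13.4 and 25.8% ± 8.67 (SD, n = 6) of its TPM, and in day 7 injured knees 52.4% ± 8.67 and 31.1% ± 9.53 (SD, n = 3), differences within the spread.

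**Figure D1:**
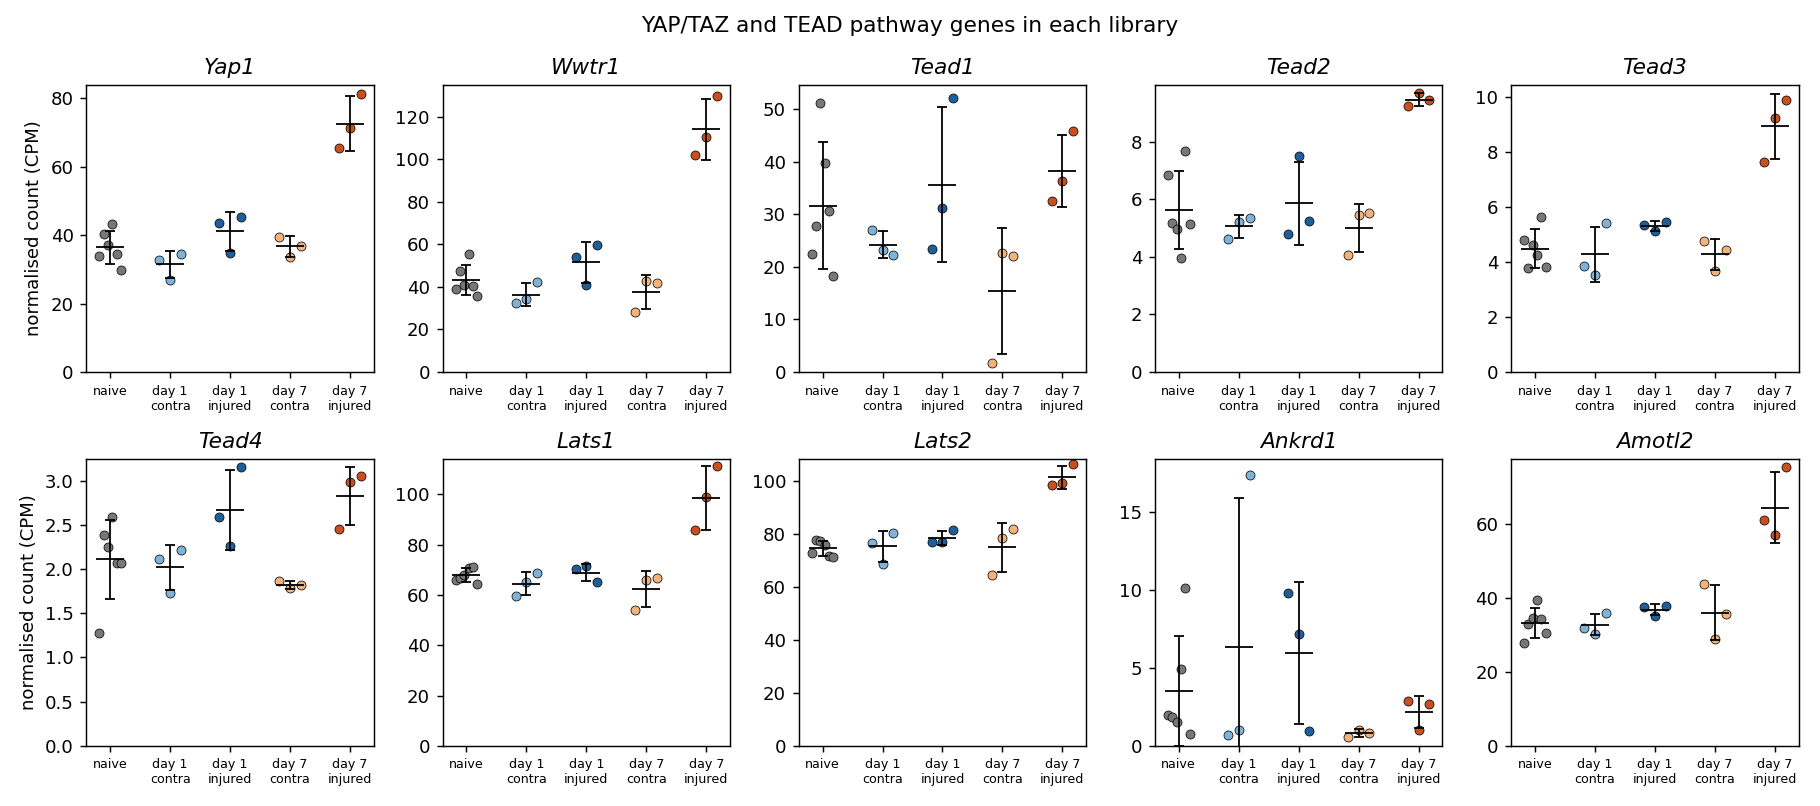
TMM-scaled CPM (y axis, linear from 0) of each of the 10 genes in the 5 groups (x axis). Points are libraries, horizontal bars are group means and vertical bars are SDs, cut off at 0 for Ankrd1. Wwtr1, Yap1, Tead2, Tead3, Lats1, Lats2 and Amotl2 have their 3 highest libraries in day 7 injured knees, Tead1 has a single low library in day 7 contralateral knees at 1.64 CPM, and Ankrd1 is scattered.

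In all, 5 of the 10 genes were called higher in day 7 injured than in naïve knees and none was called lower, where 10.4% of the 21129 genes tested were called higher and 6.11% lower. The 5 were Wwtr1, Yap1, Tead3, Amotl2 and Tead2. For 7 of the 10 every injured library lay above every naïve library, a pattern seen in 17.4% of all genes tested, and for none under them, as in 10.8%. The median log2 fold change was 0.66 over the 10 genes and −0.04 over all genes tested.

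Among the DNA-binding factors, Tead3 and Tead2 rose, and Tead1 and Tead4 did not pass the test. Tead3 (ENSMUSG00000002249, chr17:28331671-28350817, minus strand) had naïve libraries between 3.78 and 5.65 CPM and a median of 4.43. Day 7 injured libraries were at 7.63, 9.25 and 9.9 CPM, and day 7 contralateral libraries at 4.75, 3.66 and 4.43 CPM. At day 1 it was measured at 5.36, 5.12 and 5.47 CPM in injured and 3.87, 3.53 and 5.42 CPM in contralateral knees. Only the day 7 injured group was apart from all others. The log2 fold change against naïve knees was 1.01 (standard error 0.155, FDR 0.000166). The transcript Tead3-202, annotated with a retained intron, held 27.3% ± 6.92 (SD, n = 6) of the gene's TPM in naïve and 7.85% ± 3.03 (SD, n = 3) in day 7 injured knees. The coding transcript Tead3-201 held 28.8% ± 22.9 and 42.3% ± 35.0, a difference within the spread.

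Tead2 (ENSMUSG00000030796, chr7:45215753-45233644, plus strand) was at 3.96 to 7.68 CPM in naïve libraries, with a median of 5.15. It was at 9.26, 9.69 and 9.44 CPM in day 7 injured and 4.05, 5.44 and 5.54 CPM in day 7 contralateral libraries. In day 1 libraries it was at 4.81, 7.5 and 5.26 CPM in injured and 4.62, 5.22 and 5.35 CPM in contralateral knees. The 3 day 7 injured libraries lay close together and above all others. The log2 fold change against naïve knees was 0.77 (standard error 0.185, FDR 0.00578).

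For Tead2 the result depends on how its transcripts are counted. In naïve libraries 47.1% ± 11.6 (SD, n = 6) of its TPM was given to Tead2-210, a non-coding processed transcript with an effective length of 111 bases, and 22% ± 7.49 to Tead2-204, another processed transcript. The coding transcript Tead2-201 held 17.3% ± 6.77. In day 7 injured libraries Tead2-201 held 45.4% ± 9.25 (SD, n = 3) and Tead2-204 was listed at 0. Tead2-210 had 7.0 to 17.2 estimated counts per naïve library and 4.0 to 9.5 per day 7 injured library, so that its share of TPM rests on few reads. The share of Tead2-204 also rests on few reads, with 5.4 to 20.1 estimated counts per naïve library. Tead2-202 had 0.0 to 54.1 estimated counts per naïve library and was listed at 0.0 in every day 7 injured library. When the average transcript length per library entered the fit, the log2 fold change of Tead2 was 0.08 (FDR 0.84). When coding transcripts alone were counted, it was 0.87 (FDR 0.00382). The end of Tead2 also overlaps 13 bases of Cd37, a B cell gene on the opposite strand, which was at 27.4 TPM in naïve knees.

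**Figure D2:**
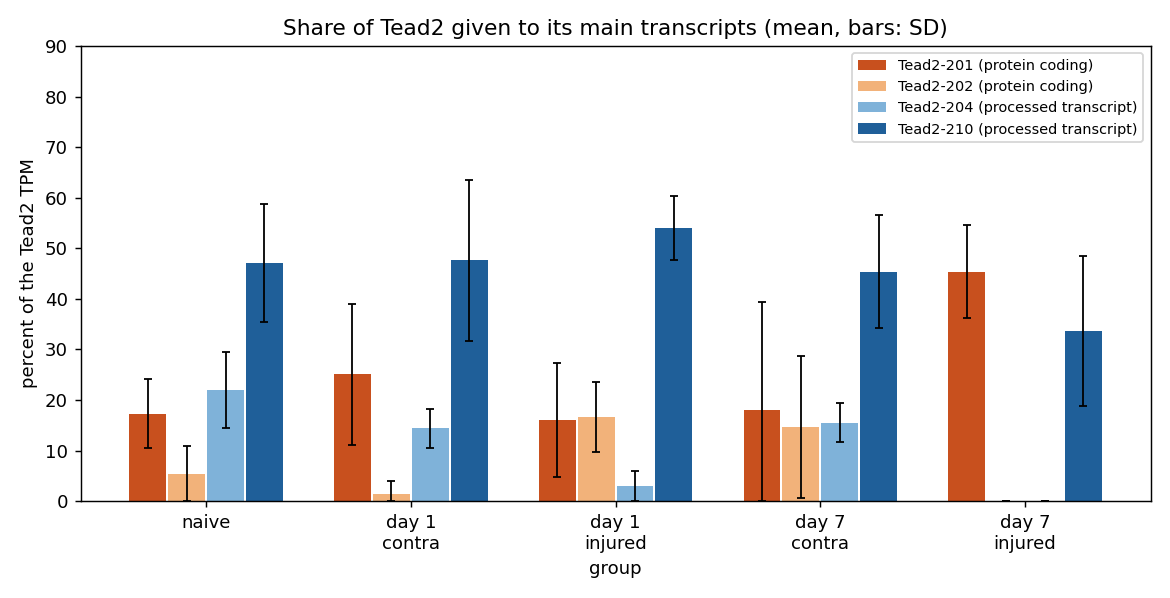
Percent of the Tead2 TPM (y axis) given to its transcripts Tead2-201, Tead2-202, Tead2-204 and Tead2-210 in each group (x axis). Bars are means and lines are SDs, cut off at 0, over 6 naïve libraries and 3 in each other group. Coding Tead2-201 holds 45.4% in day 7 injured and 17.3% in naïve knees, and Tead2-204 is at 0 in day 7 injured knees.

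Tead1 (ENSMUSG00000055320, chr7:112679318-112906807, plus strand) was at 18.2 to 51.2 CPM, with a median of 29.1, in naïve libraries. Day 7 injured libraries, at 32.6, 36.4 and 45.9 CPM, lay within that range, and the log2 fold change was 0.29 (standard error 0.281, FDR 0.461). In day 1 knees it was at 23.5, 31.3 and 52.1 CPM in injured and 27.1, 23.2 and 22.3 CPM in contralateral libraries. In day 7 contralateral libraries it was at 1.64, 22.6 and 22 CPM. The low value, 21 counts in day 7 contralateral replicate 1, was 11.1 times under the lowest of the other 17 libraries. There the coding transcript Tead1-202 had 0 estimated counts, against 215.8 to 880.4 in the others. Of 9887 genes with a mean of at least 10 CPM, 9 lay more than 10 times under all other libraries in that library.

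Tead4 (ENSMUSG00000030353, chr6:128224288-128300823, minus strand) was at 1.28 to 2.59 CPM (26 to 74 counts), with a median of 2.16 CPM, in naïve libraries. It was at 2.45, 2.98 and 3.05 CPM in day 7 injured and 1.87, 1.78 and 1.82 CPM in day 7 contralateral libraries. In day 1 libraries it was at 2.59, 2.26 and 3.15 CPM in injured and 2.11, 1.73 and 2.22 CPM in contralateral knees. Day 7 injured libraries overlapped the naïve and day 1 injured ones. The log2 fold change of 0.44 (standard error 0.194, FDR 0.103) did not pass the test.

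Both LATS kinases, which restrain YAP and TAZ, were higher in day 7 injured than in naïve knees by less than the fold limit. Lats1 (ENSMUSG00000040021, chr10:7681214-7716460, plus strand) was at 64.3 to 71.3 CPM in naïve libraries, with a median of 67.4, and at 85.9, 98.8 and 111.3 CPM in day 7 injured libraries. It was at 54.0, 66.0 and 66.7 CPM in day 7 contralateral, 70.3, 71.4 and 65.0 CPM in day 1 injured and 59.6, 65.2 and 68.7 CPM in day 1 contralateral libraries. Its naïve SD, 2.76 CPM (n = 6) around a mean of 67.9 CPM, was small, and the day 7 injured libraries lay above all others. The fold change was 1.47 (log2 0.56, standard error 0.0782, FDR 7.38e-05), and without day 7 injured replicate 1 the log2 value was 0.65, past the limit.

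Lats2 (ENSMUSG00000021959, chr14:57689662-57758388, minus strand), itself a known YAP/TAZ target, was at 71.2 to 77.8 CPM in naïve libraries, with a median of 74.2. Day 7 injured libraries were at 98.5, 99 and 106.2 CPM, and day 7 contralateral libraries at 64.4, 78.3 and 81.9 CPM. In day 1 libraries it was at 76.9, 76.7 and 81.4 CPM in injured and 76.5, 68.7 and 80.3 CPM in contralateral knees. The day 7 injured libraries were again the 3 highest. The fold change was 1.38 (log2 0.46, standard error 0.0613, FDR 4.32e-05). At the FDR limit alone, 7 of the 10 genes were higher, where 18.7% of all genes tested were. A gene model annotated as Gm49361 covers 56442 bases of Lats2 on the same strand, and it was at 0.157 TPM in day 7 injured knees and listed at 0 in naïve ones.

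Of the target genes, Amotl2 rose and Ankrd1 did not pass the test. Amotl2 (ENSMUSG00000032531, chr9:102716672-102733418, plus strand) encodes an angiomotin-like protein that binds YAP and holds it at cell junctions. It was at 27.8 to 39.5 CPM in naïve libraries, with a median of 33.7, and at 61.1, 57.1 and 75.4 CPM in day 7 injured libraries. It was at 43.8, 28.8 and 35.6 CPM in day 7 contralateral, 37.5, 35.1 and 37.9 CPM in day 1 injured and 32.0, 30.4 and 36.1 CPM in day 1 contralateral libraries. All 3 day 7 injured libraries lay above the other 15. The log2 fold change was 0.97 (standard error 0.105, FDR 5.63e-06).

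Ankrd1 (ENSMUSG00000024803, chr19:36111961-36120099, minus strand), a muscle ankyrin repeat protein and a commonly used YAP/TAZ reporter gene, did not pass any test. Its naïve libraries ran from 0.748 to 10.1 CPM (21 to 253 counts), with a median of 1.92 CPM. Day 7 injured libraries were at 2.86, 1.01 and 2.68 CPM, and day 7 contralateral libraries at 0.546, 1.03 and 0.845 CPM. In day 1 knees it was at 9.82, 7.15 and 0.953 CPM in injured and 0.716, 0.993 and 17.4 CPM in contralateral libraries. High libraries occurred in the naïve and both day 1 groups, and each of these groups also had libraries under 1 CPM. The highest summed synovial fibroblast markers of these groups were 1671.8, 1914.0 and 2029.3 CPM. They were in naïve replicate 5, day 1 contralateral replicate 3 and day 1 injured replicate 2, at 10.1, 17.4 and 7.15 CPM of Ankrd1. Day 1 injured replicate 1, at 9.82 CPM of Ankrd1, had a sum of 1148.0 CPM. The highest sum of all libraries, 2272.6 CPM, was in day 7 injured replicate 3, at 2.68 CPM of Ankrd1. Day 7 injured replicate 2 had a sum of 1613.4 CPM and was at 1.01 CPM of Ankrd1. Of these markers Prg4 made up 76.1%, and a link to Ankrd1 was not tested. Against naïve knees, the day 7 injured value of Ankrd1 was −0.66 on the log2 scale, with a standard error of 1.03 (FDR 0.658), and without naïve replicate 5 it was 0.02.

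Levels of different genes were compared per transcript length, as TPM over all transcripts of a gene. In naïve libraries the order was Lats2 at 9.62 ± 1.26 TPM (SD, n = 6), Amotl2 at 6.02 ± 1.54, Lats1 at 5.71 ± 0.663, Yap1 at 5.28 ± 0.582, Wwtr1 at 4.81 ± 0.691, Tead2 at 4.74 ± 1.11, Tead1 at 3.15 ± 1.0, Ankrd1 at 1.03 ± 1.08, Tead3 at 0.909 ± 0.232 and Tead4 at 0.482 ± 0.164. From Amotl2 to Tead2 each gene lay within an SD of its neighbour. This order depends on which transcripts are counted. With coding transcripts alone, naïve Tead2 was at 1.28 ± 0.319 TPM, under Tead1 at 2.91 ± 0.975. Amotl2 was then at 4.26 ± 1.06, under Lats1 at 5.71 ± 0.663, Wwtr1 at 4.81 ± 0.691 and Yap1 at 4.49 ± 0.575. Over all transcripts, Wwtr1 came first in day 7 injured libraries at 10.5 ± 2.56 TPM (SD, n = 3), followed by Lats2 at 9.86 ± 2.06, Amotl2 at 8.71 ± 1.99, Yap1 at 8.64 ± 2.09 and Lats1 at 6.78 ± 1.92. Each of these 5 lay within an SD of its neighbour in the order. Changes of the 10 genes between groups were not read from TPM, because the median gene moved by −0.37 on the log2 scale between day 7 injured and naïve libraries in TPM and by −0.05 in CPM. Between day 1 injured and naïve libraries the median gene moved by 0.55 in TPM and by 0 in CPM.

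The contralateral knee gave the same 5 genes and Lats1, 6 of the 10, as higher in the injured knee at day 7, where 9.33% of 21262 genes were called higher and 3.23% lower. For 9 of the 10 the injured libraries lay above all contralateral ones, a pattern of 18.6% of all genes tested. The same 3 injured libraries enter here as above. The log2 fold change was 1.6 for Wwtr1 (standard error 0.188, FDR 1.14e-05), 1.06 for Tead3 (FDR 0.000554), 0.99 for Yap1 (FDR 9.02e-05), 0.91 for Tead2 (FDR 0.00761), 0.84 for Amotl2 (FDR 0.000545) and 0.66 for Lats1 (FDR 0.000167). Without day 7 contralateral replicate 1 the same 6 genes were called, against 9.31% of 21808 genes, with Wwtr1 at 1.46 (FDR 5.32e-05), Tead3 at 1.16, Yap1 at 1.06, Amotl2 at 1.03, Tead2 at 0.81 (FDR 0.0277) and Lats1 at 0.59. For Tead1, the value was 1.28 (standard error 0.539, FDR 0.112) with that library and 0.8 (FDR 0.151) without it. With the transcript length in the fit it was 1.37 (FDR 0.0121), and Amotl2 was then at 0.36 (FDR 0.446) and Tead2 at 0.58 (FDR 0.213).

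The time course was taken from injured knees at day 7 and day 1. Of the 10 genes, 5 were called higher at day 7 (Wwtr1, Yap1, Amotl2, Tead3 and Tead2), where 9.04% of the genes tested were called higher and 6.38% lower. For 7 of the 10 all day 7 libraries lay above all day 1 libraries, as in 22.8% of all genes tested. Wwtr1 was 2.24-fold higher (log2 1.17, standard error 0.169, FDR 0.000182) and Yap1 1.78-fold (log2 0.84, standard error 0.141, FDR 0.000671). Amotl2 was at a log2 value of 0.83 (FDR 0.000266), Tead3 at 0.76 (FDR 0.00712) and Tead2 at 0.71 (FDR 0.0281). The call of Tead2 was lost when day 1 injured replicate 1 or 3 or any day 7 injured library was left out, with log2 values from 0.57 to 0.73, with the transcript length in the fit (0.25, FDR 0.567) and with coding transcripts alone (0.68, FDR 0.0516).

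At day 1 none of the 10 genes was called in injured against naïve knees, nor was any of the 21129 genes tested (0% called). At an unadjusted p under 0.05 the count was 0 of the 10 and 959 of all genes. DESeq2 called 15 genes lower and limma-voom none, with none of the 10 genes among them. The log2 fold changes of the 10 genes lay between 0.02 (Lats1) and 0.76 (Ankrd1). Against the contralateral knee at day 1, no gene was called by edgeR (0%), DESeq2 or limma-voom, while 1383 genes had an unadjusted p under 0.05. Of the 10 genes 2 did: Wwtr1, at a log2 value of 0.49 (standard error 0.168, FDR 0.755), and Yap1, at 0.38 (standard error 0.141, FDR 0.755). All 3 injured libraries lay above the 3 contralateral ones for Yap1 and Tead4, 2 of the 10 genes, those of Wwtr1 overlapped, and 5.09% of all genes tested had injured libraries above the contralateral ones.

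Contralateral knees were compared with naïve knees in the same way. No gene was called at day 1 (0%) or at day 7 (0%) by edgeR, while 554 and 3220 genes had an unadjusted p under 0.05, none of the 10 among them. DESeq2 called 2 genes at day 1 and 8 at day 7, limma-voom none, and none of the 10 was called. At day 7 the lowest value was −2.08 for Ankrd1 (FDR 0.371), and −1.93 without day 7 contralateral replicate 1.

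A test of the difference between the injury effects, that is injured minus contralateral at day 7 less the same at day 1, called Wwtr1, 1 of the 10 genes, where 3.53% of 21262 genes were called higher and 0.245% lower. The injury effect on Wwtr1 was larger at day 7 by 1.1 on the log2 scale (standard error 0.26, FDR 0.0225). Its call was lost on leaving out day 7 injured replicate 3 (0.99, FDR 0.0796), day 1 contralateral replicate 3 (0.96, FDR 0.0821) or day 1 injured replicate 2 (0.96, FDR 0.0548). Lats1 passed the FDR limit at 0.57 (FDR 0.034) under the fold limit, and it was called in 5 of 19 alternatives, each of which left out 1 library, at 0.59 to 0.66. For Amotl2 the value was 0.68 (FDR 0.0819), for Tead3 0.76 (FDR 0.129), for Tead2 0.69 (FDR 0.269) and for Yap1 0.6 (FDR 0.114), so that a difference between day 7 and day 1 was not shown for these 4 by this test. Without day 7 contralateral replicate 1, Wwtr1 was at 0.96 (FDR 0.0321) and Amotl2, then also called, at 0.87 (FDR 0.0157). Lats1 was at 0.5, Tead3 at 0.86, Tead2 at 0.6 and Yap1 at 0.68, none of them called.

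**Figure D3:**
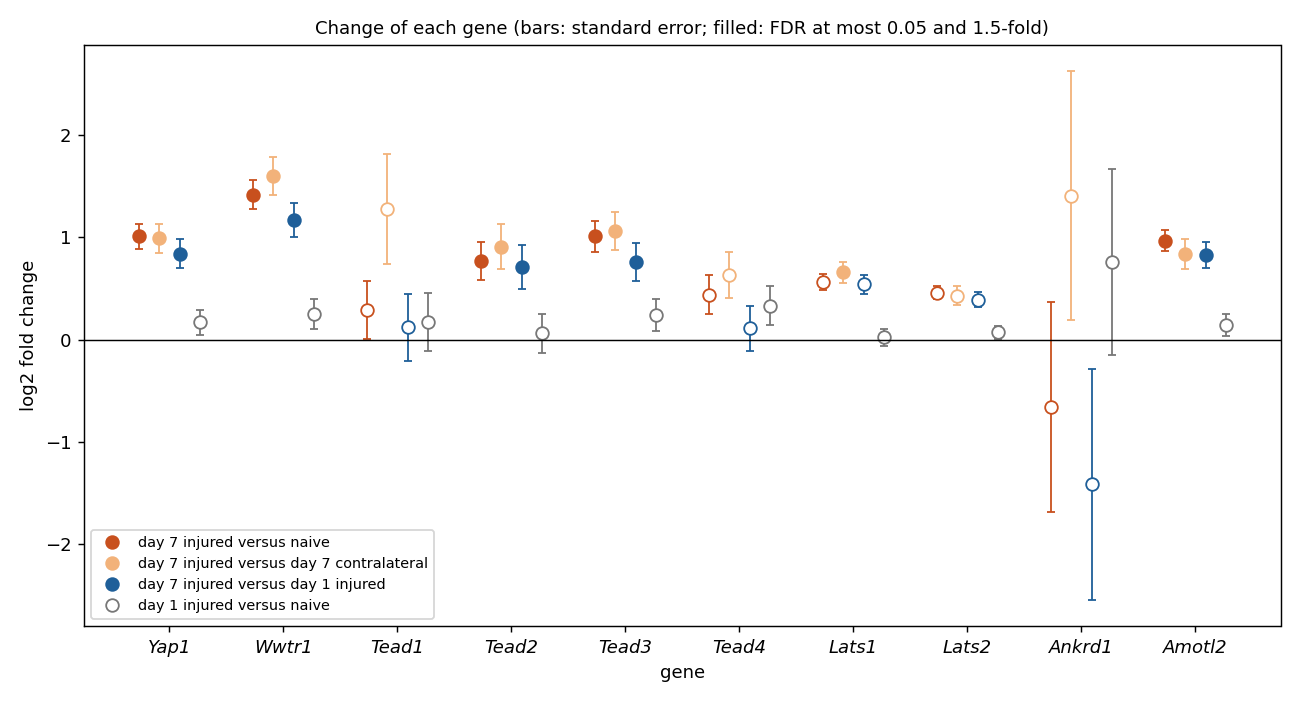
Log2 fold change (y axis) of each of the 10 genes (x axis) in 4 comparisons, shown by colour. Points are edgeR estimates, bars are standard errors, and filled points met both limits of a call. Wwtr1, Yap1, Tead2, Tead3 and Amotl2 are filled in all 3 comparisons with day 7 injured knees, Lats1 in that with the contralateral knee, and no point is filled for day 1 injured against naïve knees.

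A list of 22 YAP/TAZ targets holds Amotl2, Lats2 and Ankrd1 and 19 further genes. All 22 were tested between day 7 injured and naïve knees, and 12 were called higher and none lower, against 10.4% and 6.11% of all genes. Of the 19 outside the 10 genes above, 11 were called higher, with a median log2 fold change of 0.6. The matricellular protein genes Ccn1 (CYR61) and Ccn2 (CTGF) are the classical YAP targets. Ccn1 was at 17.1 to 44.0 CPM in naïve libraries and at 70.4, 69.9 and 107.9 CPM in day 7 injured libraries, 1.37 on the log2 scale (standard error 0.294, FDR 0.00262). Ccn2 was at 126.9 to 203.5 CPM and at 224.8, 230.3 and 331.0 CPM in the same groups, 0.6 on the log2 scale (standard error 0.143, FDR 0.0055). In neither gene did the groups overlap.

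The largest changes among the targets were in Igfbp3, which encodes an IGF-binding protein, and Fjx1, a Golgi kinase gene. Igfbp3 was at 11.5 to 19.2 CPM in naïve and at 67.6, 71.2 and 84.0 CPM in day 7 injured libraries (log2 2.26, standard error 0.174, FDR 2.17e-07). Fjx1 was at 1.21 to 2.27 CPM in naïve and 6.31, 6.72 and 10.2 CPM in day 7 injured libraries (log2 2.21, FDR 4.07e-06), while day 7 contralateral replicate 1 was at 5.22 CPM. Myof, a membrane repair gene, was at 45.5 to 86.7 CPM in naïve and 151.8, 215.4 and 253.9 CPM in day 7 injured libraries (log2 1.85, FDR 7.77e-06). Tgfb2, a TGF-beta ligand, rose with a log2 fold change of 1.35 (FDR 1.68e-05). These 4 genes were named on condition that naïve and day 7 injured libraries did not overlap. Over the whole list, all injured libraries lay above all naïve ones for 14 of the 22, against 17.4% of all genes tested. With coding transcripts alone, 10 of the 22 were called higher, against 11.3% of 15634 genes. The injury effect was larger at day 7 than at day 1 by the test of the difference for 5 of the 22, against 3.53% of all genes tested, among them Igfbp3 (2.27, FDR 0.000157), Myof (1.79, FDR 0.00475) and Tgfb2 (1.38, FDR 0.00864). Ccn1 (1.64, FDR 0.0629) and Ccn2 (0.35, FDR 0.533) did not pass it. Without day 7 contralateral replicate 1 it was 7 of the 22, against 4.09% of 21808 genes, with Amotl2 and Fjx1 (1.84, FDR 0.0197) added, and Igfbp3 was at 2.26, Myof at 1.73 and Tgfb2 at 1.46.

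**Figure D4:**
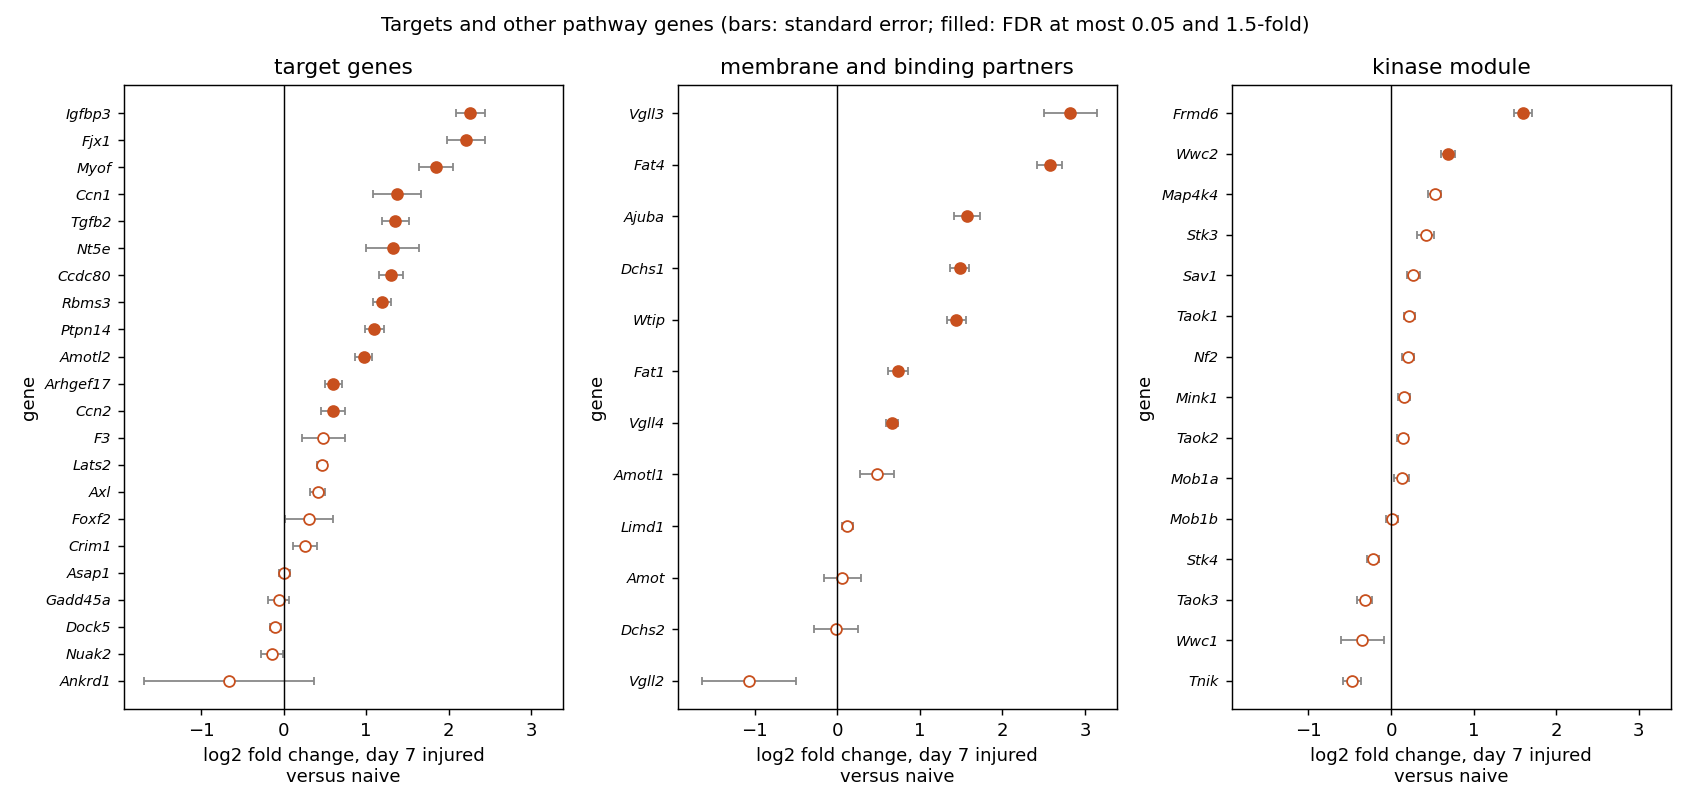
Change on the log2 scale of day 7 injured against naïve knees (x axis) of the genes tested (y axis) from 3 lists: 22 target genes, 12 membrane and binding partners, and 15 genes of the kinase module. Points are edgeR estimates, bars are standard errors, and filled points met both limits of a call: 12, 7 and 2 genes in the 3 lists.

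The second list held 13 genes of upstream cadherins and of proteins that bind YAP, LATS or TEAD, of which 12 were tested. Of these 7 were called higher in day 7 injured than in naïve knees and none lower, against 10.4% and 6.11% of all genes tested, and the median log2 fold change was 0.7, against −0.04 over all genes. Vgll3 and Vgll4 encode vestigial-like cofactors that compete with YAP and TAZ for TEAD. Vgll3 was at 2.32 to 7.16 CPM in naïve and 24.3, 26.3 and 31.0 CPM in day 7 injured libraries, 2.82 on the log2 scale (standard error 0.323, FDR 1.01e-05), the largest of the 3 lists. Vgll4 was at 33.5 to 41.0 CPM in naïve and 59.0, 54.6 and 55.6 CPM in day 7 injured libraries (log2 0.66, FDR 3.62e-06). Its log2 values against day 7 contralateral knees, 0.48 (FDR 0.00141), and day 1 injured knees, 0.55 (FDR 0.000224), were under the fold limit. Without day 7 contralateral replicate 1 the value against contralateral knees was 0.59 (FDR 0.000217), past the limit. Naïve and day 7 injured libraries did not overlap for either gene.

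Fat4 and Dchs1 encode large cadherins that bind each other and signal to the Hippo kinases. Fat4 was at 34.0 to 45.1 CPM in naïve and at 166.0, 245.8 and 264.5 CPM in day 7 injured libraries (log2 2.57, standard error 0.151, FDR 1.44e-08). Dchs1 was at 27.8 to 35.4 CPM and at 80.1, 81.4 and 93.7 CPM (log2 1.48, FDR 2.85e-07). Both were at or under 45.1 CPM in the 15 libraries outside the day 7 injured group. Ajuba and Wtip, whose LIM proteins bind LATS, had log2 fold changes of 1.57 (FDR 2.88e-06) and 1.44 (FDR 3.96e-07). Fat4, Dchs1, Ajuba and Wtip were named on condition that naïve and day 7 injured libraries did not overlap. The injury effect was larger at day 7 than at day 1 for Fat4 (2.44, FDR 5.65e-05), Vgll3 (3.22, FDR 0.00194), Dchs1 (1.23, FDR 0.00176) and Ajuba (1.13, FDR 0.0219), 4 of the 12, against 3.53% of all genes tested. Without day 7 contralateral replicate 1 it was 5 of the 12, against the same 4.09%, with Wtip (1.68, FDR 0.000216) added, and Fat4 was at 2.32, Vgll3 at 3.22, Dchs1 at 1.22 and Ajuba at 1.22.

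Of 15 genes of the kinase module 2 were called higher and none lower, near the 10.4% higher of all genes tested. The median log2 fold change was 0.16, against −0.04 over all genes. All injured libraries lay above all naïve ones for 5 of the 15, against 17.4% of all genes tested, and under them for 2, against 10.8%. The core kinase genes Stk3 (MST2) and Stk4 (MST1) had log2 fold changes of 0.42 (FDR 0.00733) and −0.22 (FDR 0.0316), their scaffold Sav1 0.27 (FDR 0.0173) and the upstream gene Nf2 (merlin) 0.21 (FDR 0.0357), all under the fold limit. The 2 called genes were Frmd6 (willin) and Wwc2 (a KIBRA relative), upstream activators of the kinases. Both were named on condition that naïve and day 7 injured libraries did not overlap. Frmd6 was at 43.0 to 53.3 CPM in naïve and at 123.6, 138.1 and 172.1 CPM in day 7 injured libraries (log2 1.6, standard error 0.111, FDR 8.28e-08). Wwc2 had a log2 fold change of 0.69 (FDR 2.99e-05), and day 7 contralateral replicate 1, at 57.0 CPM, lay close to the day 7 injured libraries at 57.2 to 66.3 CPM.

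Likeness to the co-activators was measured as Pearson's r of log2(CPM + 0.5) over the 18 libraries, among 15988 genes with a mean of at least 1 CPM. The genes most like Wwtr1 were Egfr (r = 0.979), Zfp423 (0.978) and Pcdhgc3 (0.977), and those most like Yap1 were Nedd4 (0.983), Dlc1 (0.982) and Ehd2 (0.981). Egfr, the EGF receptor gene, was at 56.8 ± 8.22 CPM (SD, n = 6) in naïve and 170.2 ± 35.1 CPM (SD, n = 3) in day 7 injured knees. Nedd4, a ubiquitin ligase gene, was at 468.4 ± 37.0 and 887.3 ± 94.3 CPM. The values share libraries and scaling, and the day 7 injured group is high for all 6, so that r describes the separation of that group as much as the spread within groups.

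Markers of other cells moved with the comparison of day 7 injured and naïve knees, in which 10.4% of all genes tested were called higher and 6.11% lower. The 3 tendon markers Scx, Tnmd and Mkx, of which Tnmd made up 64.9%, summed to 113.1 to 126.7 CPM in the 3 day 7 injured libraries and to 7.73 to 23.3 CPM in the other 15, and all 3 were called higher than in naïve knees. Of 6 smooth muscle and pericyte markers 4 were called higher, and their sum, mostly Rgs5, was 513.4 to 661.1 CPM in day 7 injured and 195.7 to 477.9 CPM in the other libraries. Of 8 endothelial markers 4 were called higher, with sums of 640.6 to 714.8 CPM in day 7 injured and 480.2 to 605.4 CPM in the other libraries. Vwf held 42% of the endothelial sum and was itself at 207.6, 187.8 and 190.5 CPM in day 7 injured libraries, under the 217.5 to 291.8 CPM of naïve ones. Of the 10 chondrocyte markers 4 were called higher, with a sum of 7163.3 to 8176.2 CPM in day 7 injured and 4016.1 to 7481.5 CPM in naïve libraries, and of 7 synovial fibroblast markers 2. None of the 10 skeletal muscle markers was called, and 4 of 7 erythroid, 2 of 6 marrow myeloid and 1 of 4 adipocyte markers were called lower. None of the 8 macrophage markers, of which Lyz2 made up 74.0%, was called, and 1 each of 6 osteoblast and 5 osteoclast markers was called higher. The part of these cells in the changes of the pathway genes was not tested.

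**Figure D5:**
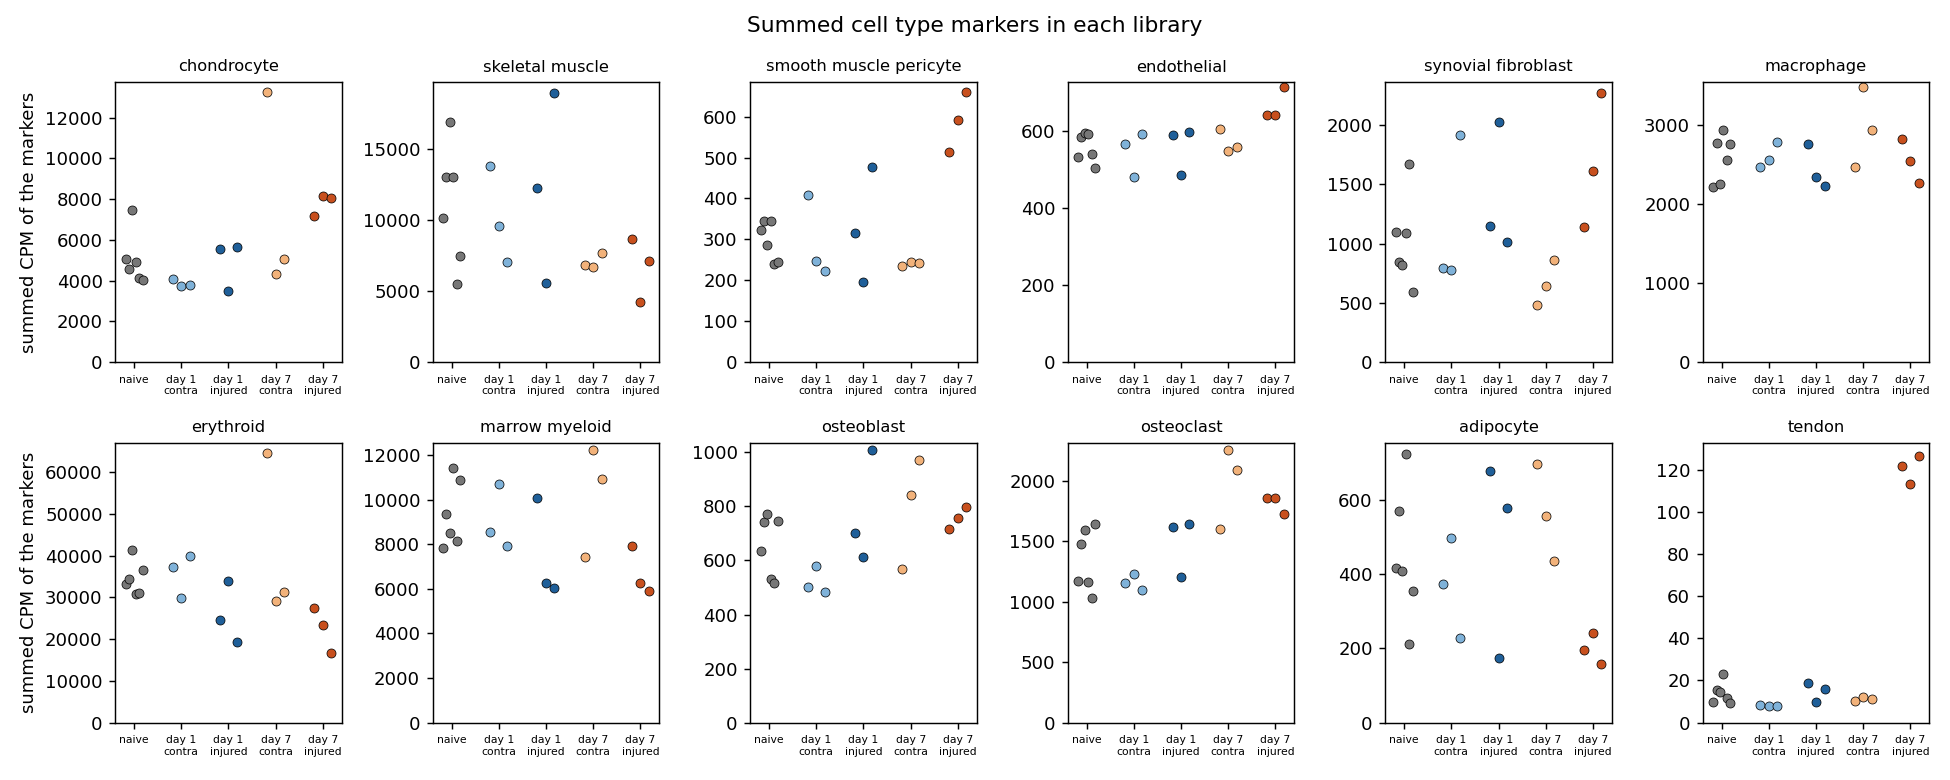
Summed CPM (y axis, linear from 0) of the markers of 12 cell types in each library (points) by group (x axis). The tendon sum is between 113.1 and 126.7 CPM in day 7 injured libraries and at most 23.3 CPM elsewhere, and day 7 contralateral replicate 1 has the highest chondrocyte and erythroid sums.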

How the data were processed

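Femoral condyle cartilage of naïve, injured and contralateral mouse knees was sequenced as stranded total RNA. The deposited tables hold, per transcript, an estimated count, an effective length and TPM, made by the authors with Kallisto against mouse GRCm38 transcripts after Trimmomatic. Per the labels the build is GRCh38, which the mouse transcript identifiers contradict. The strand setting was not given in the sources used here. A library with low mapping was removed from analysis by the authors and not named. Whether it is among the 18 libraries used here is not known.

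Of 137436 transcripts per library, 135107 (98.3%) matched the annotation. The others held 0.667% to 3.9% of counts and were left out of genes. Estimated counts were summed per gene and rounded. Library totals were 16074762 to 41794005 (median 25465706). Genes passing filterByExpr were tested with edgeR 4.0.16 (quasi-likelihood, TMM, Benjamini-Hochberg over all genes) in R 4.3.3, on 15 libraries, or on all 18 where the day 7 contralateral group entered. DESeq2 1.42.0 and limma-voom (limma 3.58.1) were alternatives, with other size factors, no filter, other limits, a length offset, other samples and each replicate left out. Replicates are pools, so p-values measure the spread between pools. The fits treated all libraries as independent, although some came from the same mice. On simulated data with 200 genes changed 3-fold, 150 were called, and 8 unchanged genes, in day 7 injured against naïve knees (21129 genes).

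The 10 genes and all lists were chosen with earlier results of these data known. From the lists, the text names Ccn1, Ccn2, Vgll3, Vgll4, Nf2, Stk3, Stk4 and Sav1, and up to 5 genes per list and direction with the largest called change and no overlap between day 7 injured and naïve libraries. For likeness, the 3 genes with the highest r are named for Yap1 and Wwtr1.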

Additional observations from a re-analysis of the deposited data

Results flagged for a closer look

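The effect of injury on Wwtr1, injured against contralateral, differed between day 7 and day 1: it was larger at day 7 by 1.1 on the log2 scale (standard error 0.26, FDR 0.0225 by edgeR over all genes). The call was lost on leaving out day 7 injured replicate 3 (FDR 0.0796), day 1 contralateral replicate 3 (FDR 0.0821) or day 1 injured replicate 2 (FDR 0.0548). All 3 day 7 injured libraries, at 101.8 to 129.8 CPM, lay above the 3 day 7 contralateral libraries, at 28.2 to 42.7 CPM, while at day 1 the injured libraries, at 40.8 to 59.7 CPM, overlapped the contralateral ones, at 32.6 to 42.5 CPM. The summed tendon markers were also higher in day 7 injured libraries, and their part in this difference was not tested.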

How the results depend on the processing

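The number of the 10 genes called in the difference between the injury effects was 1, and 2 at the FDR limit alone (Wwtr1, Lats1), 0 at an FDR of at most 0.01, 2 with protein-coding transcripts alone (Wwtr1, Amotl2), an alternative chosen after seeing the data, and 0 to 2 when 1 library was left out. Of all genes, 3.72%, 1.6%, 3.82% and 1.8% to 4.09% were called higher in these settings. The values that changed sign were not called. For day 7 against day 1 injured knees, Tead1 (0.12) was at −0.02 with coding transcripts and −0.12 to 0.49 with 1 library left out, and Tead4 (0.11) at −0.06 with the length offset, −0.04 with coding transcripts and −0.01 to 0.23 with 1 library left out. Leaving out 1 library moved Ankrd1 between −0.88 and 0.02 against naïve knees and between −1.4 and 2.08 in the difference of effects. Tead2 lost its call with the length offset in all 3 comparisons with day 7 injured knees (0.08, 0.58 and 0.25), Amotl2 against contralateral knees (0.36), and Lats1 there without day 7 injured replicate 3 (0.56). The cause was not tested. Counts per library were low for Tead4 (24 to 95) and ran from 7 to 744 for Ankrd1. No paired analysis was made here, because the labels do not say which libraries share mice. The authors accounted for samples of the same mouse pool in their own limma fit.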
